A study of Mus musculus with 15 samples.

Results

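The 7 genes described here are regulators and a marker of the neural lineage: Sox1, Neurog1, Neurog2, Neurod1, Olig1, Olig2 and Nes. They were taken by symbol and make up 7 of the 22035 genes with H3K27me3 and RNA values. For 6 of them, all but Sox1, the H3K4me3 table holds 9 of its 74866 start-site windows of 1 kb. Within 20 kb of 5 of them lie 10 of 98085 randomly placed bins of 2 kb, 5 at Neurod1, 2 at Neurog1 and 1 each at Neurog2, Olig1 and Sox1. None of these bins lies near Olig2 or Nes.

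All libraries came from wild-type male TT2 embryonic stem (ES) cells of a C57BL/6 x CBA background, a line derived from the inner cell mass of the blastocyst. The study tested how far native chromatin immunoprecipitation, which uses chromatin cut by a nuclease without crosslinking, can be scaled down to few cells. H3K27me3 was profiled with 100000, 10000 and 1000 cells, and H3K4me3 with 100000, 10000 and 5000 cells, with 1 library each. H3K9me3 was profiled with 1000000, 100000 and 10000 cells in 1 library each and with 1000 cells in 3 libraries (a, b, c). Total histone H3 (panH3) was profiled with 1000 cells in 2 libraries (a, b), and RNA depleted of ribosomal RNA was sequenced once from 1000 cells. The cells received no treatment that the labels name, so the groups differ in the antibody target and in the number of cells. The labels do not name separate cultures for libraries made from the same number of cells, and the spread between them may be technical.

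In ES cells many genes of later lineages carry H3K27me3, a mark placed by Polycomb repressive complex 2 and associated with genes held silent. H3K4me3 marks the start sites of active genes, and start sites that carry both marks are called bivalent. H3K9me3 is a mark of heterochromatin and of silenced repeats. Sox1 is an HMG-box transcription factor and an early marker of the neural plate. Neurog1, Neurog2 and Neurod1 are basic helix-loop-helix (bHLH) factors that drive neuronal differentiation, and Olig1 and Olig2 are bHLH factors of the oligodendrocyte and motor neuron lineages. Nes encodes nestin, an intermediate filament protein of neural progenitors.

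CG-rich promoters are known as the usual sites of H3K27me3 in ES cells, so the promoters were compared by their CG content. RefSeq promoters of build GRCm38.p6 were matched to 6 of the 7 genes, all but Olig1, and the 250 bases before the start site were read. The H3K27me3, H3K4me3 and RNA values are on build mm9, so the 2 sets of coordinates must not be mixed. The 4 promoters printed here span the range of CG content among the 6, with each CG dinucleotide in capitals. They are Sox1 at chr8:12395269-12395518 (plus strand), Neurog1 at chr13:56252181-56252430 (minus strand), Nes at chr3:87970843-87971092 (plus strand) and Neurog2 at chr3:127632886-127633135 (plus strand).
Sox1: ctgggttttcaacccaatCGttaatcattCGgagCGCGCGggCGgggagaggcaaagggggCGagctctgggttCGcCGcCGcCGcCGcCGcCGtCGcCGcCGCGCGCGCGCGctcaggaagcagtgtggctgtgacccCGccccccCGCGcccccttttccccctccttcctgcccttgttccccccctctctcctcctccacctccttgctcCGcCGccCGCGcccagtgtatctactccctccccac
Neurog1: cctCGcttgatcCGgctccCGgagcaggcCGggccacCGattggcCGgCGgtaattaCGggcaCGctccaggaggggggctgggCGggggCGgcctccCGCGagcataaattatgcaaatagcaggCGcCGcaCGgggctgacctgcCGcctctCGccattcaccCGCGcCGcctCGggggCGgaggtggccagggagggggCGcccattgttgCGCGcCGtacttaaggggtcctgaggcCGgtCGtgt
Nes: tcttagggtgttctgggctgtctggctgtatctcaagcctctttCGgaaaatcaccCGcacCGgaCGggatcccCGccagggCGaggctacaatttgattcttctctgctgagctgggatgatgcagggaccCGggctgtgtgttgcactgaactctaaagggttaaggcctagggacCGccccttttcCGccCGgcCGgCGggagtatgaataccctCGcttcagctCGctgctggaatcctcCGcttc
Neurog2: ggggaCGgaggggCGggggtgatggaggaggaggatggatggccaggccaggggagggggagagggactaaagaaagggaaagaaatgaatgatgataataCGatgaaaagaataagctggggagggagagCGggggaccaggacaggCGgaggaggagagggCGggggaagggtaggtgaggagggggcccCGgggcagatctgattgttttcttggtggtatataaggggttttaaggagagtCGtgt
Sox1 and Neurog1 each held 29 CG dinucleotides in these 250 bases, which put both at the 93.6th percentile of 32851 promoters. Neurod1 and Olig2 each held 22 (85.9th percentile), Nes 15 (73.6th) and Neurog2 8 (58.3rd), against a median of 6 and quartiles of 2 and 16 over all promoters. All 6 were thus above the median, but the neurogenins stood at opposite ends of the 6. The octamer ATGCAAAT, searched on both strands, was present once in Neurog1 and in none of the other 5, and 1.60% of all promoters held it.

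The position of the H3K27me3 windows decides what each value means. The header describes them as lying within 1 kb of the transcription start, but the values follow the leftmost coordinate of the gene on both strands. Transcripts that shared the leftmost coordinate had identical H3K27me3 values in 302 of 302 cases on the plus strand and in 700 of 701 on the minus strand. Transcripts that shared the rightmost coordinate did so in 38 of 736 and 11 of 283 cases. For minus-strand genes over 10 kb long, the Spearman correlation across genes with the 2 kb bin at the leftmost coordinate was 0.94 (n = 616), against 0.60 at the rightmost one (n = 672). Sox1, Neurog2, Olig1, Olig2 and Nes are plus-strand genes, and their H3K27me3 windows hold the start site. Neurog1 and Neurod1 lie on the minus strand, and their windows are centred on the end of transcription, 1664 bp and 3933 bp from the start site. The H3K4me3 windows were centred on start sites for all 6 genes that have them.

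Depth, recovered from the steps of the values, was 13.03 to 19.66 M reads for H3K27me3, 13.39 to 45.52 M for H3K9me3, and 42.02 and 42.15 M for panH3. The H3K4me3 libraries were unequal, with 16.6, 1.07 and 1.86 M reads at 100000, 10000 and 5000 cells, so that 1 read in a start-site window was worth 0.0602, 0.938 and 0.539 RPKM (reads per kilobase and per M reads). Intervals given below are exact Poisson 95% intervals of the reads behind a value and cover counting error only. For H3K27me3 in the gene table the read numbers are approximate. RNA of all 10 ES cell markers was at or above 1 RPKM (15.01 to 222 RPKM, sum 784 RPKM). Of 10 fibroblast markers, which feeder cells would carry, 1 reached 1 RPKM (Thy1, 1.79 RPKM), their sum was 2.98 RPKM, and Col3a1 and Postn were listed at 0. Of 9 other markers of neural progenitors 2 reached it, Tubb3 at 25.7 RPKM and Msi1 at 2.32 RPKM, their sum was 29.2 RPKM, and Fabp7 and Dcx were listed at 0. None of 5 endoderm markers (0.01 to 0.61 RPKM, sum 1.25 RPKM) and none of 5 mesoderm markers (0.04 to 0.38 RPKM, sum 1.09 RPKM) reached 1 RPKM.

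H3K27me3 was high over most of the neural genes. At 100000 cells the median of the 7 genes was 1.84 RPKM, against 0.28 RPKM over all 22035 genes, and it was 1.91 against 0.28 RPKM at 10000 cells and 0.78 against 0.31 RPKM at 1000 cells. At 100000 cells 5 of the 7 genes were at or above the 90th percentile of all genes (0.97 RPKM), where by construction 10.1% of genes lie. The highest values were those of the neurogenins. The remaining 2 genes, Neurod1 and Olig1, were at the 89.1st and 86.6th percentiles. Windows of minus-strand genes hold transcription ends and have lower values, with a 90th percentile of 0.76 RPKM against 1.21 RPKM for plus-strand genes. Against plus-strand genes alone (background 10%), 3 of the 5 plus-strand genes reached the 90th percentile, and Nes (89.1st) and Olig1 (82.0th) did not.

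**Figure D1:**
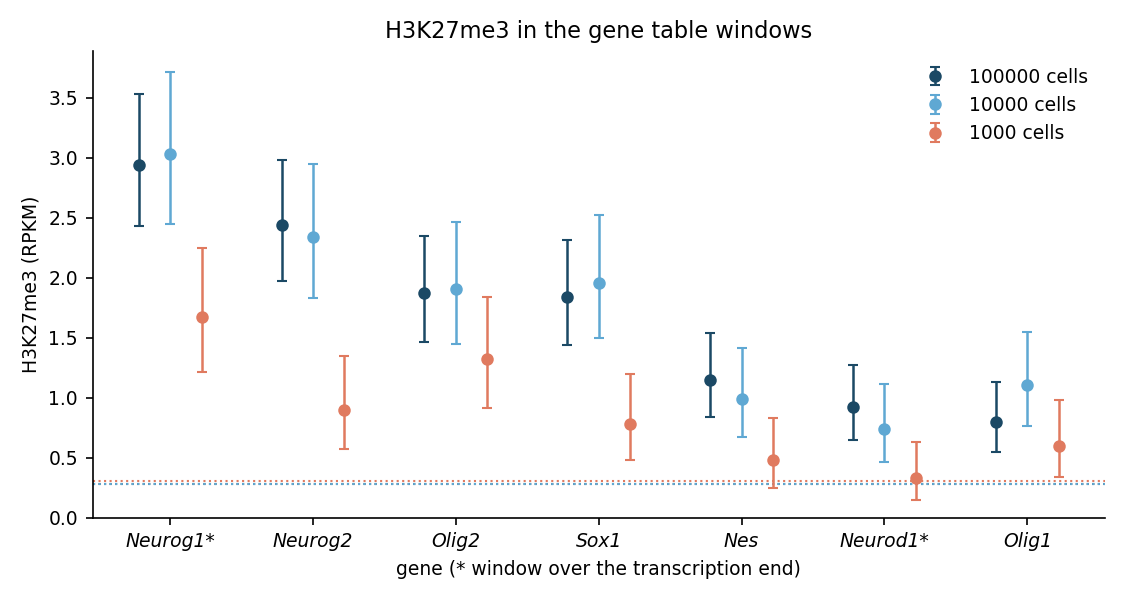
H3K27me3 in RPKM (vertical axis) for each of the 7 genes (horizontal axis) at 100000, 10000 and 1000 cells, 1 library each, with 95% Poisson intervals from approximate read numbers. Dotted lines are the medians of all genes (0.28, 0.28 and 0.31 RPKM) and asterisks mark windows over a transcription end. The 1000-cell point lies below both others for all 7 genes.

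Among the bHLH factors of neuronal differentiation, Neurog1 had 2.94, 3.03 and 1.67 RPKM at 100000, 10000 and 1000 cells, above the 99th percentile of all genes each time. This value describes the end of the gene (NM_010896, chr13:56351860-56353524, minus strand). Neurog2, whose window holds its start site (NM_009718, chr3:127336064-127338552, plus strand), had 2.44, 2.34 and 0.90 RPKM. Their intervals at 100000 cells overlapped (2.43 to 3.53 RPKM for Neurog1 and 1.98 to 2.98 RPKM for Neurog2). Neurod1 (NM_010894, chr2:79292800-79296792, minus strand) had 0.92, 0.74 and 0.33 RPKM at its transcription end. A random bin that holds its start site (chr2:79296001-79298000) read 2.44, 2.52 and 0.88 RPKM, the 99.7th, 99.6th and 95.4th percentiles of all bins. The start of Neurod1 was thus as high as the Neurog2 window, and its gene table value is a value of the other end of the gene.

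The Olig genes, which are neighbours on chromosome 16, differed from each other. Olig2 (NM_016967, chr16:91225792-91228920) had 1.87, 1.91 and 1.32 RPKM at 100000, 10000 and 1000 cells. Olig1 (NM_016968, chr16:91270016-91272184) had 0.80, 1.11 and 0.60 RPKM, the lowest value of the 7 genes at 100000 cells. Their intervals at 100000 cells did not overlap (1.47 to 2.35 RPKM and 0.55 to 1.13 RPKM), and at 10000 cells they did (1.45 to 2.47 and 0.77 to 1.55 RPKM). Nes (NM_016701, chr3:87775016-87784376) had 1.15, 0.99 and 0.48 RPKM. In the order of the levels at 100000 cells (Neurog1, Neurog2, Olig2, Sox1, Nes, Neurod1, Olig1), the intervals of every pair of neighbours overlapped.

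Sox1 (NM_009233, chr8:12395518-12399555) had 1.84, 1.96 and 0.78 RPKM at 100000, 10000 and 1000 cells. Its chromosome read high in every library. The mean of the 2 kb bins on chromosome 8 was 1.45 to 1.49 times that of the autosomes other than 1, 8 and 11 in all 11 libraries of the bin table, panH3 included. Divided by that ratio, Sox1 would read 1.24, 1.32 and 0.53 RPKM. Among the 570 plus-strand genes of chromosome 8, it was at the 93.1st, 91.0th and 78.9th percentiles. Sox1 also lies within the longer transcript Gm5607 (NR_027975, plus strand, chr8:12385770-12436732), whose start is 9.75 kb upstream and whose own start-site window had 3.83, 4.63 and 2.29 RPKM of H3K27me3.

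The 100000 and 10000 cell libraries gave like values, while the 1000 cell library read lower. From 100000 to 10000 cells, none of the 7 genes moved past 1.5-fold, on the log2(RPKM + 0.1) scale. Of all genes 12.1% were lower and 10.2% higher by that much, but their median is 0.28 RPKM and rests on fewer reads. The share among genes at the level of the 7 was not counted for 10000 cells. The 95% interval of the ratio of RPKM values included 1 for all 7 genes, whose ratios ran from 0.80 (Neurod1) to 1.39 (Olig1). From 100000 to 1000 cells, 5 of the 7 were lower past 1.5-fold and none higher, against 15.2% and 18.0% of all genes. Most genes have little H3K27me3, and where the 3 libraries averaged 1 RPKM or more 52.4% of genes were lower past 1.5-fold. The 7 genes held 4 at that level, of which 3 were lower (Sox1, Neurog1 and Neurog2), and on the plus strand 2 of 3 were (Sox1 and Neurog2), against 57.3%. A fall of this size was thus common among genes at that level. Each comparison rests on 1 library per cell number and has no replicate check.

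Neurog2 and Neurod1 had the lowest ratios of 1000 to 100000 cells, 0.37 (95% interval 0.22 to 0.58) and 0.36 (0.15 to 0.77), the latter from about 9 reads at 1000 cells. For Nes the ratio was 0.42 (0.20 to 0.79), for Sox1 0.42 (0.25 to 0.70) and for Neurog1 0.57 (0.39 to 0.81). The intervals of these 5 lay below 1. For Olig2 the ratio was 0.71 (0.46 to 1.07) and for Olig1 0.75 (0.38 to 1.42), so a fall was not detectable at this depth in either oligodendrocyte gene. The intervals of Olig2 and Neurog2 overlap, and a difference between the genes was not tested. Olig2 ranked higher at 1000 cells (97.7th percentile) than at 100000 (97.0th), whereas Nes went from the 92.5th to the 72.2nd percentile and Neurod1 from the 89.1st to the 52.9th. Setting each library to its own median moved the median difference of all genes from 0.00 to −0.11 on the log2 scale, and the same number of genes, 5, stayed past 1.5-fold lower. A larger pseudocount of 1 RPKM left 2. The share of all genes past that fold was not counted in either setting.

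H3K4me3 at the start sites of the neural genes lay between that of silent and of transcribed genes. At 100000 cells the median of the 6 genes measured was 1.81 RPKM, and 4 of the 6 were above the median of all 25727 genes with start sites (1.39 RPKM), where 49.7% of genes lie. Over the 20317 of these genes that also have RNA values the median was 2.11 RPKM, which only Olig1 and Nes exceeded. The groups by RNA below are drawn from those genes. Genes with RNA of at least 1 RPKM had a median of 4.58 RPKM, above all 6, and genes with RNA listed at 0 had a median of 0.24 RPKM, below all 6. The 90th percentile of the genes listed at 0 was 0.90 RPKM, which 5 of the 6 exceeded.

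At 100000 cells Olig1 had the highest H3K4me3 value of the 6, with an interval that overlapped that of Nes, and at 10000 and 5000 cells Nes was above it. Olig1 had 3.61 RPKM at 100000 cells (60 reads, 2.76 to 4.65), 9.38 at 10000 (10 reads) and 2.15 at 5000 (4 reads). Nes had 2.47 RPKM (41 reads, 1.77 to 3.35), 12.2 (13 reads) and 5.39 RPKM (10 reads) in the window that stands for it, and 2.41 and 2.83 RPKM at 100000 cells in its other windows, which overlap it. Olig2 had 1.93 RPKM (32 reads, 1.32 to 2.72), 2.81 (3 reads) and 5.39 RPKM (10 reads). The Olig1 interval at 100000 cells lay just above that of Olig2, which was the reverse of their order in H3K27me3.

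The bHLH factors of neuronal differentiation were lower. Neurog2 had 1.69 RPKM at 100000 cells (28 reads, 1.12 to 2.44), 3.75 at 10000 (4 reads) and 1.62 at 5000 (3 reads). Neurog1 had 1.26 RPKM (21 reads, 0.78 to 1.93), 1.88 (2 reads) and 1.08 RPKM (2 reads). Neurod1 had 0.60 RPKM (10 reads, 0.29 to 1.11), 1.88 (2 reads) and 1.08 RPKM (2 reads), and its second window, which overlaps the first, had 0.42 RPKM at 100000 cells. The Neurod1 interval at 100000 cells lay below those of Neurog2, Olig2, Nes and Olig1 and overlapped that of Neurog1.

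**Figure D2:**
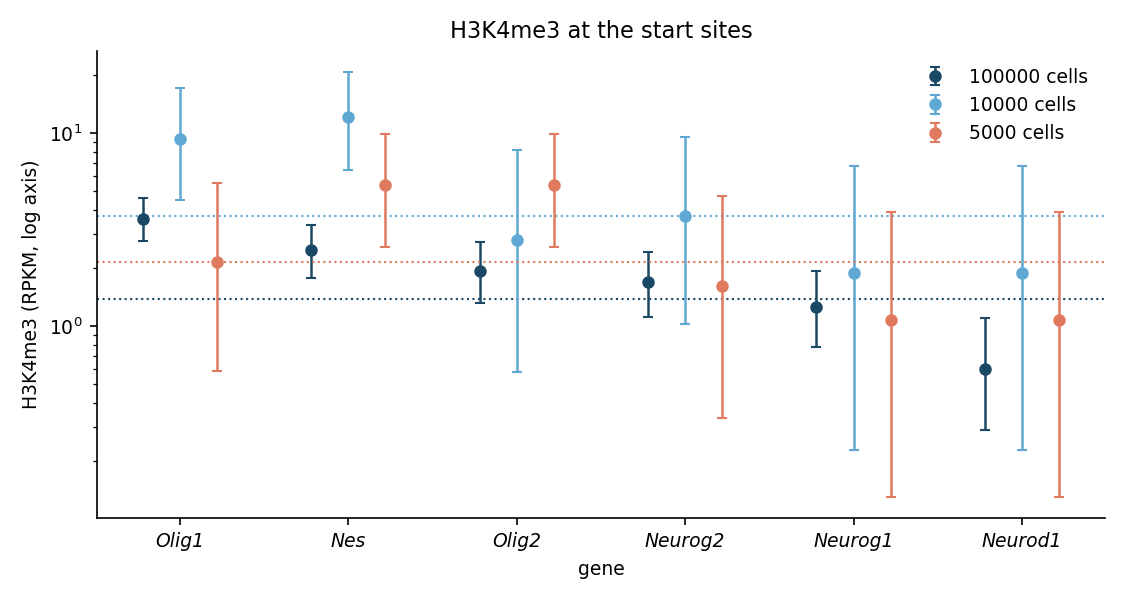
H3K4me3 in RPKM (log axis) in the start-site window of 6 genes at 100000, 10000 and 5000 cells, 1 library each, with 95% Poisson intervals. Dotted lines are the medians of all genes (1.39, 3.75 and 2.15 RPKM). The intervals at 10000 and 5000 cells, from 2 to 13 reads, are much wider than those at 100000.

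Across cell numbers the H3K4me3 values of these genes were limited by reads. From 100000 to 5000 cells 3 of the 6 were higher past 1.5-fold (Neurod1, Olig2 and Nes) and Olig1 was lower, against 55.4% and 22.2% of all genes. The median difference of all genes was 0.75 on the log2 scale, and that of the 6 genes was 0.35. When each library was set to its own median, the difference of all genes fell to 0.16 and the split of the 6 genes turned to 1 higher and 3 lower, with a median of −0.25. The shares of all genes were not counted in that setting. From 100000 to 10000 cells 4 of the 6 were higher past 1.5-fold (Neurog2, Neurod1, Olig1 and Nes) and none lower, against 62.6% and 27.9% of all genes. The interval of the ratio excluded 1 in 3 cases, Olig2 at 5000 cells (2.79, 1.22 to 5.82), Nes at 10000 cells (4.94, 2.43 to 9.39) and Olig1 at 10000 cells (2.60, 1.19 to 5.11). Both shallow libraries also had higher medians over all genes, so these ratios compare libraries of unequal scale.

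RNA of the 7 neural genes differed widely, and their median lay at the 46.1st percentile of all genes. Over exons Olig1 had 3.42 RPKM, Olig2 2.57, Nes 1.55, Sox1 0.68, Neurod1 0.65 and Neurog1 0.06 RPKM, and Neurog2 was listed at 0. The median of the 7 was 0.68 RPKM, against 1.02 RPKM over all genes. A level of at least 1 RPKM was reached by 3 of 7 (Olig1, Olig2 and Nes), against 50.2% of all genes. The neurogenins were at the 27.9th (Neurog1) and 10.5th percentiles (Neurog2), and Olig1 at the 64.4th. These values come from 1 library whose depth was not recovered and have no error. In a library from 1000 cells, RNA in a few differentiated cells and a low level in every cell cannot be told apart. Of the 9 other neural progenitor markers, 7 were below 1 RPKM in the same library, with Pax6 at 0.63, Hes5 at 0.28 and Sox3 at 0.23 RPKM, while Tubb3 had 25.7 and Msi1 2.32 RPKM. Among genes of differentiated neurons Stmn2 had 72.0 RPKM and Dcx was listed at 0. The part of such genes in these values was not tested. Sox1 and Gm5607 (0.63 RPKM) overlap on the same strand, so reads in their shared part can belong to either.

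Set side by side at 100000 cells, the 7 genes ran from much H3K27me3 with no or little RNA to less H3K27me3 with some RNA. At that cell number Neurog1 and Neurog2 had the most H3K27me3 and the least RNA, and Olig1 had the least H3K27me3 and the most RNA and H3K4me3. This order did not hold at every cell number. Neurod1 and Nes were below Olig1 in H3K27me3 at 10000 and 1000 cells, and Olig2 (1.32 RPKM) was above Neurog2 (0.90 RPKM) at 1000. Olig2 did not follow that order, with 1.87 RPKM of H3K27me3 at its start site at 100000 cells beside 2.57 RPKM of RNA. Neurod1 did not either at its end, but its start-site bin, at 2.44 RPKM beside 0.65 RPKM of RNA, lay near Neurog2. Across all genes, those with RNA of at least 1 RPKM had a median H3K27me3 of 0.17 RPKM and those listed at 0 had 0.42 RPKM, so all 7 were above both medians.

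**Figure D3:**
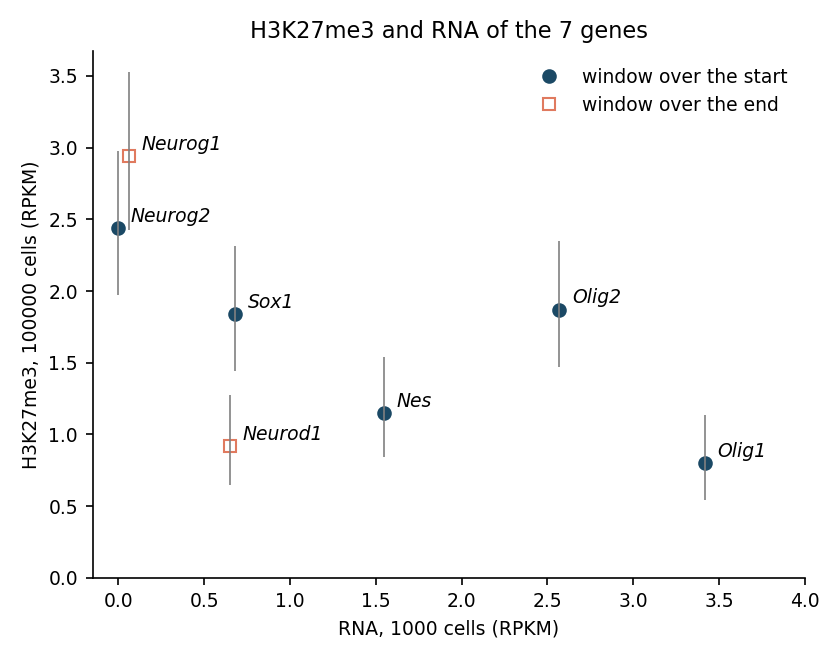
H3K27me3 at 100000 cells (RPKM, vertical axis, with 95% Poisson intervals) against RNA from 1000 cells (RPKM, horizontal axis) for the 7 genes, 1 library each. Filled circles are windows over the start site and open squares are windows over the transcription end. Neurog1 and Neurog2 sit at the upper left, Olig1 at the lower right and Olig2 above Nes and Olig1.

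Which neural genes passed a threshold for both marks depended on the H3K4me3 median used. Of the 6 genes in both tables, 1 (Nes) was at or above the 90th percentile of H3K27me3 (0.98 RPKM) and above the median of H3K4me3 (2.11 RPKM) over the 20317 genes there, against 3.66% of all these genes. Among plus-strand genes alone, whose H3K27me3 threshold is higher, it was 0 of 4 against 4.18%. Neurog2 and Olig2 passed the first threshold and had 1.69 and 1.93 RPKM of H3K4me3, below the second. Both values lie above 1.39 RPKM, the H3K4me3 median of all 25727 genes with start sites. The share of all genes that pass with that lower median was not counted. Olig1 passed the second with 3.61 RPKM and had 0.80 RPKM of H3K27me3. For Neurog1 and Neurod1 the windows of the 2 marks lie at opposite ends of the gene and say nothing of both marks at 1 site. The random bin that holds the Neurod1 start site had 2.44 RPKM of H3K27me3 at 100000 cells, the 99.7th percentile of all bins. H3K4me3 at that start was 0.60 RPKM, below the second threshold.

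H3K27me3 could be followed with distance at Neurod1 alone, since the other genes had fewer random 2 kb bins or none. At Neurod1, at 100000 cells, it was 2.44 RPKM (1.98 to 2.98) in the bin with the start site, 1.5 (1.14 to 1.94) in the bin centred 1.73 kb downstream and 0.99 (0.71 to 1.36) in the bin centred 3.73 kb downstream. It was 0.43 RPKM (0.25 to 0.69) 10.3 kb upstream and 0.13 RPKM (0.04 to 0.30) 15.7 kb downstream, against a median of 0.36 RPKM over all bins. At 100000 cells the mark was thus highest at the start of Neurod1 and near or below the median of all bins beyond the gene. At 10000 cells the first 3 of these bins read 2.52, 2.45 and 0.75 RPKM, and at 1000 cells 0.88, 1.23 and 0.35 RPKM. The start-site bin was thus close to the bin 1.73 kb downstream at 10000 cells and below it at 1000 cells.

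At Neurog1 the bin chr13:56350001-56352000 overlaps only the end of the gene and lies mostly downstream of it. It had 4.04, 4.74 and 2.15 RPKM at 100000, 10000 and 1000 cells, above the 99.9th percentile of all bins each time. A second bin, 16.5 kb downstream of the start site, had 1.22, 0.88 and 0.65 RPKM. Sox1 had 2.41, 2.68 and 1.07 RPKM in a bin 9.48 kb downstream of its start, inside Gm5607, on a chromosome that read high in all libraries. The bins near Neurog2 (13.1 kb upstream) and Olig1 (23.0 kb downstream of its start) had 0.71 and 0.48 RPKM at 100000 cells. The start-site windows of the same genes read 2.44 and 0.80 RPKM.

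**Figure D4:**
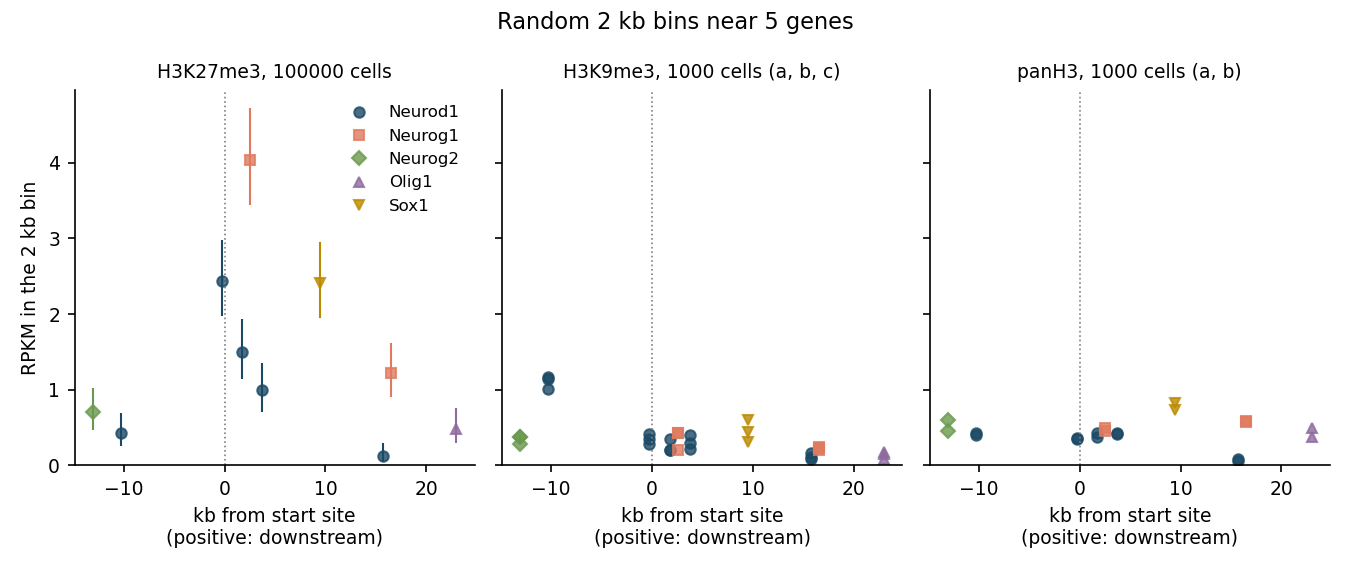
RPKM in the 10 random 2 kb bins (vertical axis) by distance of the bin centre from the start site of the gene (kb, horizontal axis), for H3K27me3 at 100000 cells (95% Poisson intervals), H3K9me3 at 1000 cells (3 libraries) and panH3 at 1000 cells (2 libraries). H3K27me3 of Neurod1 is highest at the start site, and the Neurod1 bin 10.3 kb upstream is the only one of the 10 with H3K9me3 above 1 RPKM.

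Set against panH3 at 1000 cells, H3K27me3 was more than 2-fold higher in 3 of the 10 bins, against 2.49% of all bins, and more than 2-fold lower in none, against 9.23%. These were the Neurog1 bin at and past the gene end (4.48-fold), the Neurod1 bin centred 1.73 kb downstream (3.07-fold) and the Neurod1 start-site bin (2.48-fold). The folds are ratios of RPKM to the mean of both panH3 libraries. The Sox1 bin was 1.38-fold above panH3, in which it was itself high (0.73 and 0.82 RPKM). With a pseudocount of 1 RPKM only the Neurog1 bin stayed past 2-fold, and the share of all bins was not counted in that setting.

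H3K9me3 was compared with panH3 at 1000 cells, the 1 comparison with more than 1 library on each side. In most of the 10 bins H3K9me3 did not exceed panH3, as in the median of all bins, and the calls were near the shares of all bins. By limma with Benjamini-Hochberg adjustment over 93575 bins, 1 of the 10 was higher, against 15.2% of all bins, and 3 were lower, against 24.7%. Over all bins 14224 were higher and 23158 lower. When each library was set to its own median, the median difference of all bins moved from −0.10 to 0.08 on the log2 scale and the split turned to 20312 higher and 18564 lower, and the 10 bins then held 1 higher and 2 lower.

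The higher bin lay 10.3 kb upstream of Neurod1 (chr2:79306001-79308000). It had 1.14, 1.17 and 1.01 RPKM in H3K9me3 a, b and c (mean 1.11 ± 0.09, SD, n = 3) and 0.43 and 0.40 RPKM in panH3 (mean 0.42 ± 0.02, SD, n = 2). The groups did not overlap, and the limma difference was 1.23 ± 0.18 (SE) on the log2 scale (adjusted p = 3.77e-06). In the libraries of 1000000, 100000 and 10000 cells this bin read 1.07, 1.06 and 1.01 RPKM of H3K9me3, between the 95th and 98th percentiles of all bins. It kept its call in all 11 other settings tried on it (adjusted p from 1.26e-08 to 0.00206). The start-site bin of Neurod1 had 0.28, 0.42 and 0.35 RPKM of H3K9me3 against 0.35 and 0.36 RPKM in panH3, groups that overlapped (difference −0.028 ± 0.24, limma adjusted p = 0.940).

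The lower bins were at Neurog1, Olig1 and Sox1. The Neurog1 bin 16.5 kb downstream had 0.23, 0.20 and 0.24 RPKM of H3K9me3 against 0.57 and 0.59 RPKM in panH3 (−1.07 ± 0.23, limma adjusted p = 0.000546), and it kept its call in all 11 other settings (adjusted p from 7.27e-05 to 0.0245). The Olig1 bin had 0.09, 0.17 and 0.15 against 0.49 and 0.37 RPKM (−1.17 ± 0.26, limma adjusted p = 0.000767). It lost its call without panH3 library a (limma adjusted p = 0.0513), and in the other settings its adjusted p was lower. The Sox1 bin had 0.60, 0.31 and 0.44 against 0.73 and 0.82 RPKM (−0.70 ± 0.22, limma adjusted p = 0.0114). Its call was lost in 5 of 11 other settings, among them those without H3K9me3 library b (limma adjusted p = 0.0757), panH3 a (0.0513) or panH3 b (0.132), with centred libraries (0.0540) and with no filter on low bins (0.0749). Of the 6 bins not called, 4 had H3K9me3 below panH3 with no overlap between the groups. These were the bins at Neurod1 1.73 and 3.73 kb downstream, the bin at and past the Neurog1 gene end and the Neurog2 bin. The share of all bins without overlap was not counted, so these 4 are no further evidence of low H3K9me3.

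Other genes of the neural program were set beside the 7 by lists. H3K27me3 at or above the 90th percentile was found in 13 of 14 other proneural and neuronal bHLH factors and in 27 of 30 neural tube patterning factors. Their medians at 100000 cells were 1.89 and 2.41 RPKM, against 0.28 RPKM over all genes. On the plus strand alone, where windows hold start sites, the counts against plus-strand genes were 8 of 8 and 10 of 11. The lists were chosen with earlier results of these data known and are given as a description.

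Among the bHLH factors Neurod2 (3.73 RPKM, minus strand) and Ptf1a (3.24, plus strand) had the highest H3K27me3, and Nhlh1 had the lowest (0.68). RNA was listed at 0 for 9 of the 14, against 4608 of all 22035 genes. None of the 14 reached 1 RPKM, against 50.2% of all genes. Of these 14 genes 5 were above the H3K4me3 median of all genes with start sites (1.39 RPKM), where 49.7% of genes lie. Among the patterning factors, homeobox and zinc finger proteins that divide the neural tube into territories, Otx1 (5.24) and Irx3 (3.63) were highest and Pax7 (0.51) lowest, all on the minus strand. RNA reached 1 RPKM in 5 of the 30, and 17 of the 26 with start-site windows were above the same median of H3K4me3.

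Other lists had lower medians of the mark than the bHLH and patterning lists. On the plus strand alone, 1 of 2 Sox factors reached the 90th percentile of plus-strand genes (median 1.48 RPKM). Of the Notch and Id genes 3 of 7 did (0.73 RPKM), and of the intermediate filament genes 4 of 6 (1.38 RPKM). The counts that follow are over both strands, with windows of minus-strand genes at transcription ends. Of 9 Sox factors of neural cells 4 were at or above the 90th percentile (median 0.71 RPKM), led by Sox21 (3.93), Sox14 (3.09) and Sox9 (2.25), with Sox4 lowest (0.16). Sox2, the pluripotency and neural progenitor factor, had 0.71 RPKM of H3K27me3, 7.59 RPKM of H3K4me3 and 76.0 RPKM of RNA, against 1.84 RPKM of H3K27me3 and 0.68 RPKM of RNA for its relative Sox1. Of 16 genes of Notch signalling and Id inhibitors 8 reached the 90th percentile (median 1.17 RPKM), led by Dll4 (3.01), Hes5 (2.0) and Hes6 (1.56). The lowest of these 16 was Rest (0.05), the repressor of neuronal genes, which had 50.7 RPKM of RNA. Of 11 intermediate filament genes, relatives of Nes, 5 reached it (median 0.81 RPKM), led by Gfap (2.03), Nefl (1.83) and Des (1.51), with Synm lowest (0.30). RNA was at least 1 RPKM in 9 of these 11, against 50.2% of all genes.

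Genes of differentiated neurons and glia had little H3K27me3. Of the 11 found in the gene table (Map2 was not matched), 2 reached the 90th percentile, Tubb3 (1.77 RPKM) and Mbp (1.15), and Rbfox3 (0.69) and Mog (0.14) were the next and the lowest. Their median was 0.36 RPKM, near the 0.28 RPKM of all genes. RNA reached 1 RPKM in 5 of the 11, against 50.2% of all genes. From 100000 to 1000 cells H3K27me3 was lower past 1.5-fold in 8 of 14 bHLH factors, 6 of 9 Sox factors, 19 of 30 patterning factors, 10 of 16 Notch and Id genes, 4 of 11 intermediate filament genes and 1 of 11 genes of neurons and glia. Beside these stand the 5 of 7 found for the genes described here, 15.2% of all genes and 52.4% of those averaging 1 RPKM or more, and differences between the lists were not tested.

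**Figure D5:**
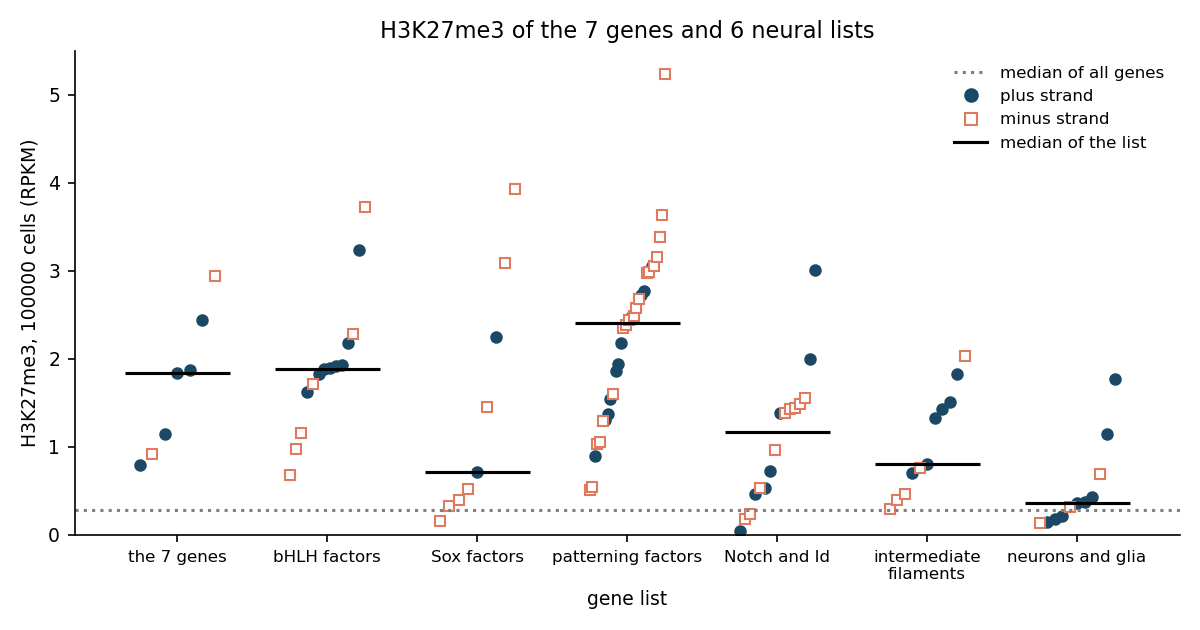
H3K27me3 at 100000 cells (RPKM, vertical axis) of each gene in the 7 genes and in 6 lists of neural genes (horizontal axis), 1 library. Filled circles are plus-strand genes, open squares minus-strand genes (windows over the transcription end), black lines list medians and the dotted line the median of all genes. The bHLH and patterning lists lie mostly above the dotted line, and the neuron and glia list lies around it.

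The genes most like each neural gene were found over 5 values on the log2(RPKM + 0.1) scale, H3K27me3 at 3 cell numbers, H3K4me3 at 100000 cells and RNA, among 20317 genes. Nearest to Neurog1 were Uncx, Lhx5 and Dmrt2 (Euclidean distances 0.32, 0.34 and 0.43), and nearest to Neurog2 were Hoxd4, Alx4 and Fgf5 (0.39, 0.40 and 0.41). RNA of all 6 was at or below 0.08 RPKM, which follows from RNA being 1 of the 5 values that set the distance. Nearest to Olig1 were Ccdc136, Arhgef10 and Itpka (0.25, 0.27 and 0.41), to Nes Arhgef26, Tnfrsf1a and Aif1l (0.30, 0.30 and 0.35), and to Neurod1 Spata21, Gm5124 and Fgr (0.29, 0.53 and 0.59). Pstpip2 and Tmem102 (0.45 and 0.46) were among the 3 nearest to Olig2. Among the neural genes themselves, Neurog1 and Neurog2 were closest (1.22), followed by Olig1 and Nes (1.34), and Neurog2 and Olig1 were farthest apart (5.57). For Neurog1 and Neurod1 the H3K27me3 values are those of the gene end.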

How the data were processed

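Native ChIP-seq and RNA sequencing of ES cells used paired-end Illumina sequencing, per the labels' protocols. BWA, SAMtools and build mm9 are named in the submitters' processing notes, while versions, the counting tool and read filters were not given in the sources used here. The authors deposited RPKM values, per the file headers, 1 column per library, in a gene table, a table of 1 kb start-site windows and a table of random 2 kb bins. A further 2 columns in the start-site table belong to another series and were left out. No bin exceeds 5 RPKM, and the highest start-site windows reach 49.2, 99.4 and 49.5 RPKM, so stronger windows may be missing from these tables.

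Groups and the letters a, b and c come from the labels. Reads were recovered from the steps of the RPKM values, which were compared after rounding to 2 decimals. Of the possible 2-decimal values, from 9 of 100 (H3K9me3 at 1000000 cells) to 1979 of 2000 (H3K4me3 at 10000 cells) are no whole multiple of the step, and at most 2 rows of a library in the bin and start-site tables held such a value. In the gene table no step was found, so its reads were estimated from RPKM, the depth of the library in the bin table and a 2 kb window. H3K9me3 (a, b, c) and panH3 (a, b) were compared with limma 3.58.1 (R 4.3.3) on log2(RPKM + 0.1), with robust moderation and an intensity trend, two-sided, over all bins above 0 in at least 1 library, with a threshold of 0.05 on the adjusted p. No label says that the letters pair libraries of the 2 marks, and their a minus b deviations correlated at −0.0096 over 93575 bins, so no block was used. All other comparisons have 1 library per group and no test, and their intervals are exact Poisson or exact conditional 95% intervals of counting error. Where a symbol has several rows, the row with the highest mean stands for it.

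The 7 genes, the lists and the alternatives were chosen with earlier results of these data known. Named beside the 7 genes are the 3 highest and the lowest of each list and the 3 genes nearest to each of the 7, with others named where a result turned on them. Some genes that this rule selects are not reported here. Comparisons restricted to 1 strand were added after the position of the windows had been seen. Software was Python 3.11.15 with matplotlib 3.10.9, pandas 2.3.3, scipy 1.17.1 and numpy 2.4.6. No genome of build mm9 was used here.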

Additional observations from a re-analysis of the deposited data

How the results depend on the processing

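The H3K9me3 calls depended on single libraries. The number of bins near the neural genes called lower than panH3 by limma was 3, ran from 1 to 5 when each of the 5 libraries was left out in turn, and was 1 among the 6 bins within 10 kb, while 1 higher bin was called in every setting. With 1 panH3 library left, that library was assumed to vary like the others. With a replicate block of the letters a and b, which are not known to pair the libraries, 4 were lower and 1 higher (13555 higher and 22786 lower over all bins, against 14224 and 23158). The difference at the Neurod1 start-site bin, not called in any setting, turned from −0.028 to 0.15 with centred libraries and 0.069 with limma voom on recovered reads, and ran from −0.14 to 0.088 as single libraries were left out (the highest without H3K9me3 a). Limma voom also called the Neurog2 bin lower (adjusted p = 0.0361).

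The number of genes at or above the 90th percentile of H3K27me3 was 5 with rows averaged and with genes above 0 alone. It was also 5 among genes of the same strand, where Nes (89.1st percentile) dropped out and Neurod1 (93.3rd) came in, and 3 with plus-strand genes alone, where only 5 genes remain. The number lower past 1.5-fold at 1000 cells was 5, but 2 with log2(RPKM + 1), which shrinks differences, and 3 among plus-strand genes. For H3K4me3 at 5000 cells the count of 1 lower became 0 with log2(RPKM + 1) and 3 with centred libraries, where the count of 3 higher became 1 and the median of 0.35 became −0.25. Both marks were found at 0 genes, in place of 1, with both at the 75th percentile or with plus-strand genes alone. H3K27me3 past 2-fold above panH3 was found in 1 bin, in place of 3, with log2(RPKM + 1). For these counts past a fold, the share of all genes or bins was not counted with log2(RPKM + 1) or centred libraries. The percentile of the median RNA was 46.1 among all genes and 31.9 among genes above 0. In the other settings these counts stayed within 1.5 times. Depth limits H3K4me3 most, with 2 to 13 reads per gene at 10000 and 5000 cells.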
